A study of Mus musculus with 28 samples.

Results

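Histone H3.3 is made from 2 mouse genes, H3f3a and H3f3b, and reaches chromatin with the help of chaperone proteins. The 9 genes described here were these 2 and 7 chaperone genes, Hira, Ubn1, Cabin1, Asf1a, Asf1b, Daxx and Atrx. They were chosen by name, and each matched 1 of the 37620 rows of the count table. All 9 had enough reads to enter every test. Their RNA was followed in WT and K36M mouse embryonic fibroblasts (MEFs) while these cells were reprogrammed to induced pluripotent stem cells (iPSCs). For each genotype, poly(A) RNA was sequenced from MEFs at d0, from reprogramming cells at d2, d4, d6 and d8, from passaged iPSCs, and from MEFs without OKSM, written noOKSM. OKSM stands for the reprogramming factors Oct4, Klf4, Sox2 and Myc. There were 2 libraries in each of the 14 groups, 28 in all. The media were DMEM with serum for MEFs, AGi for reprogramming and S/L for iPSCs. Between MEFs, reprogramming cells and iPSCs, stage and medium therefore cannot be told apart. Within d2 to d8 the medium was the same. K36M is the change of lysine 36 of histone H3 to methionine. The library names of the WT cells carry H3.3 where those of the K36M cells carry K36M. The sources used here do not give which histone gene carries K36M, how it was introduced, its promoter, the age of the embryos or whether replicates came from separate cultures. P-values therefore rest on the spread of library pairs that may be technical replicates.

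H3.3 differs from the replication-dependent H3 proteins in that it is made and placed into chromatin throughout the cell cycle. H3f3a and H3f3b code for the same protein. The HIRA complex, in which HIRA works with UBN1 and CABIN1, places H3.3 mainly at active genes and receives it from ASF1A. DAXX, a histone chaperone, and ATRX, a chromatin remodeler, place H3.3 at silent repeats such as telomeres. ASF1A and ASF1B bind H3-H4 dimers and pass them on to other chaperones, and ASF1B is known as the form of dividing cells. CAF-1, the chaperone of replication-coupled H3, is known as a barrier to the reprogramming of fibroblasts.

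Because the study turns on lysine 36 and the H3.3 genes have near-identical copies, their coding sequences were set side by side in mm9, the build named in the submitters' processing notes. Codons 27 to 46 are shown 5′ to 3′ on the coding strand, counting the start codon as codon 1. Capitals mark codon 37, AAG, which codes for lysine 36 of the finished histone.
H3f3a: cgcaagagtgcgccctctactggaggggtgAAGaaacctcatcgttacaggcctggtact
H3f3b: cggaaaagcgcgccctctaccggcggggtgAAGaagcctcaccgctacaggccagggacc
H3f3a-ps2: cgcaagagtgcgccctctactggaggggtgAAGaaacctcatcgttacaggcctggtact
H3f3c: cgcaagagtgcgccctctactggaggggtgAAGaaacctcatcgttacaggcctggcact
The H3f3a stretch spans chr1:182740392-182741979 and that of H3f3b chr11:115885083-115885245, both on the minus strand and both across an exon junction. H3f3a-ps2 (chr16:91114707-91114766, minus strand) and H3f3c (chr2:119491635-119491694, minus strand) are copies that lie in 1 exon. Within this stretch H3f3a and H3f3b differ at 11 of 60 bases. Over the whole coding sequence they share 316 of 411 bases (76.9%), and 83 of 137 codons differ in sequence. H3f3c shares 407 of 411 bases with H3f3a (99.0%) and H3f3a-ps2 shares 406 (98.8%), while each shares 76.4% with H3f3b.

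This likeness bears on what a read count of H3.3 means. Of all stretches of 50 bases in the H3f3a coding sequence, 92.8% also stood elsewhere in the 22 mm9 chromosomes searched. The share was 46.4% for the H3f3b coding sequence. For the whole transcripts it was 32.5% and 25.8%. None of the 50-base stretches of the 7 chaperone transcripts was found elsewhere. The sources used here give neither the read length of these libraries nor the treatment of reads with several matches, so the H3f3a and H3f3b counts are less certain than those of the chaperones.

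The libraries held between 17507521 and 35622279 counts in genes. Summed CPM (counts scaled to a common library size) of 5 fibroblast markers lay between 14300 and 24000 in the 8 MEF libraries, and that of 5 pluripotency markers between 3340 and 3780 in the 4 iPSC libraries. The fibroblast markers did not fall to 0 in the iPSC libraries, where they summed to 650 to 1050 CPM, more than in the K36M libraries of d4, d6 and d8 (76.2 to 320 CPM). Their part in the iPSC values of the 9 genes was not tested. Replicates differed by more than sampling noise in every group, with a chi-square per gene from 2.35 in K36M d0 to 65.4 in K36M d6. K36M d6 replicate 1 stood apart from replicate 2, with an SD of 0.51 over genes in the log2 ratio of the pair against 0.1 to 0.24 in the other 13 pairs. Exon length also moved with some pairs. The log2 ratio of replicate 2 to 1 correlated across genes with log2 exon length with r = 0.61 in WT d0, 0.62 in WT d4 and -0.62 in K36M noOKSM. Between genotypes the trend with exon length was largest at d6. There the median K36M to WT log2 fold change was 0.59 in the decile of genes with the shortest exons and -0.81 in the longest. The 9 genes span 2180 exon bases (Asf1a) to 15190 (Atrx), so the tests were also run with this trend removed.

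**Figure D1:**
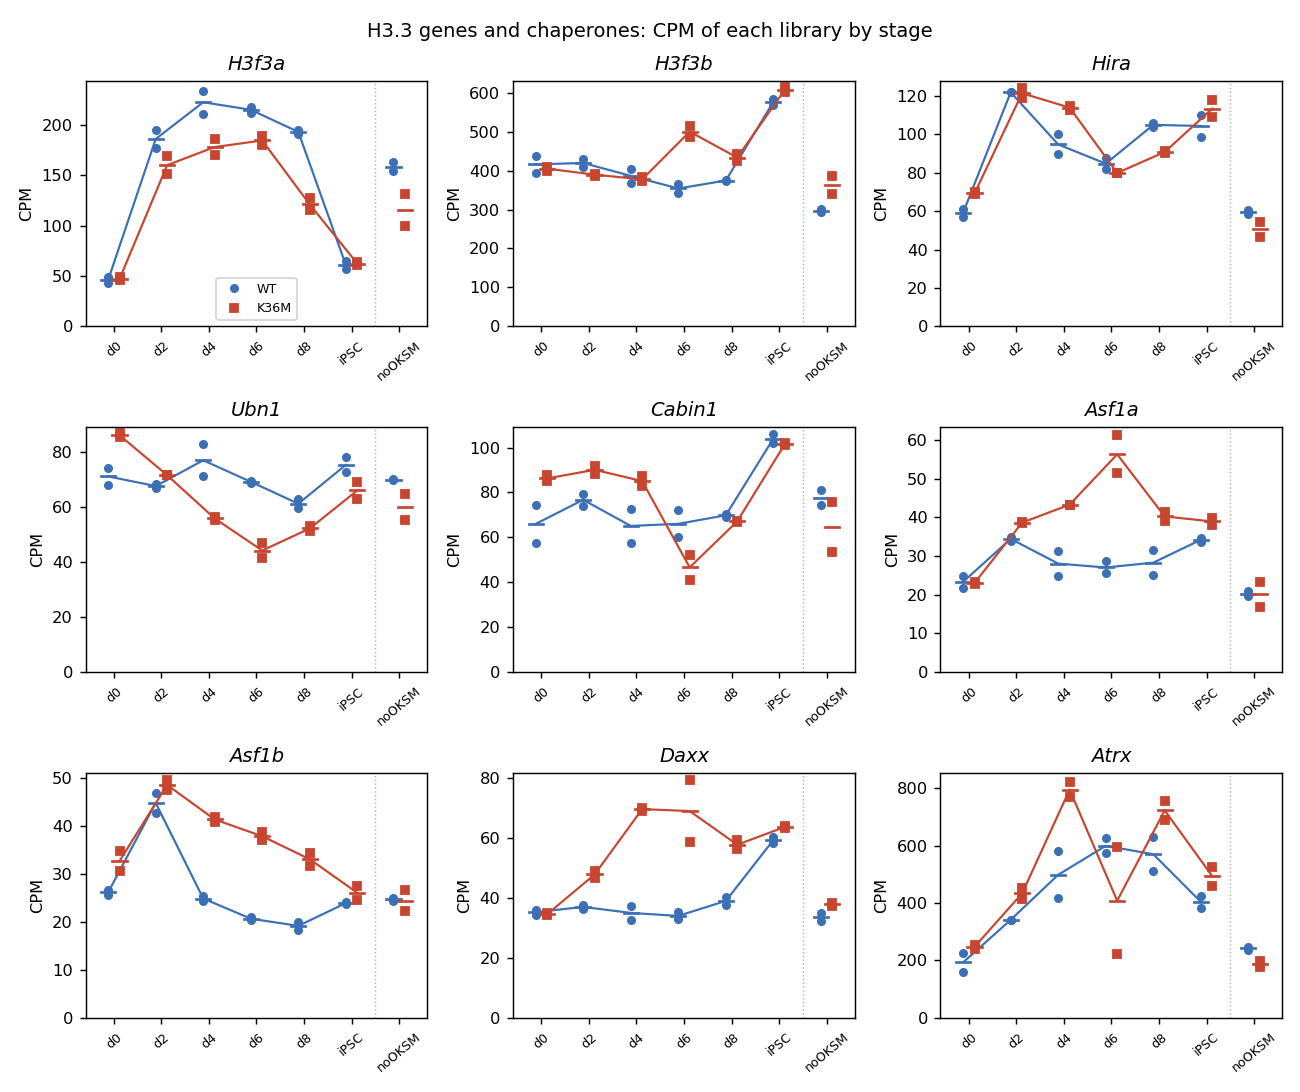
CPM of each of the 9 genes (y axis, from 0) by stage (x axis), with 1 point per library, WT in blue circles and K36M in red squares. Short bars are means of 2 libraries and lines join the means of d0 to iPSC. H3f3a runs from 43.3 CPM in a WT d0 library to 234 in a WT d4 library, and 1 K36M d6 library holds 222 CPM of Atrx where the other holds 594.

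H3f3a, on chromosome 1 from 182730963 to 182744074, was low in MEFs at d0, high at every day of reprogramming and in noOKSM MEFs, and low again in iPSCs. In WT, the libraries held 49.1 and 43.3 CPM at d0, 195 and 177 at d2, 234 and 211 at d4, 212 and 218 at d6, and 191 and 195 at d8. WT iPSCs held 65.1 and 56.6 CPM, and WT noOKSM MEFs 163 and 154. K36M libraries held 45.5 and 48.8 CPM at d0, 169 and 151 at d2, 170 and 186 at d4, 180 and 189 at d6, 115 and 127 at d8, 63.9 and 60.7 in iPSCs, and 99.7 and 131 in noOKSM MEFs. Every d2 to d8 and noOKSM library of either genotype was thus above every d0 and iPSC library. The log2 fold change of WT against its own d0 lay between 2.01 ± 0.117 at d2 and 2.27 ± 0.118 at d4 (± SE, edgeR adjusted p = 8.64e-13 and 7.81e-14), and it was 1.78 ± 0.116 in noOKSM (edgeR adjusted p = 6.97e-10). The noOKSM libraries carry a different prefix in their library names than all others, so against d0 a difference of noOKSM and one between sets of libraries cannot be told apart. In iPSCs the WT value was 0.40 ± 0.115 (edgeR adjusted p = 0.00349), and it did not pass without WT d0 replicate 2 (0.31) or without WT iPSC replicate 1 (0.29). In bulk RNA, fewer cells of a type and less RNA per cell cannot be told apart.

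The K36M cells held less H3f3a RNA than WT cells over d2 to d8, by -0.37 ± 0.0779 on the log2 scale (edgeR adjusted p = 0.000904, n = 8 libraries per genotype). By day, the values were -0.22 ± 0.111 (d2), -0.32 ± 0.111 (d4), -0.22 ± 0.111 (d6) and -0.68 ± 0.111 (d8; edgeR adjusted p = 0.19, 0.0169, 0.0766 and 1.63e-05). On each of these days both K36M libraries lay below both WT libraries. At d0 the K36M value was 0.03 ± 0.116 and in iPSCs 0.03 ± 0.114 (edgeR adjusted p = 0.93 and 0.968). In noOKSM MEFs H3f3a was lower in K36M as well, by -0.46 ± 0.111 (edgeR adjusted p = 0.00251), a call that was lost without K36M noOKSM replicate 1 (-0.28, adjusted p = 0.0744). The d4 difference did not pass with upper quartile scaling (-0.26, edgeR adjusted p = 0.0575). Nor did it pass without WT d4 replicate 1 (-0.29) or K36M d4 replicate 1 (-0.26). The d6 difference passed when the exon length trend was removed (-0.28, adjusted p = 0.0238).

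H3f3b, on chromosome 11 from 115883226 to 115889276, took another course. WT libraries held 437 and 395 CPM at d0, 409 and 430 at d2, 404 and 369 at d4, 342 and 366 at d6, 375 and 374 at d8, 585 and 568 in iPSCs, and 293 and 301 in noOKSM MEFs. Among K36M libraries the values were 400 and 410 CPM at d0, 392 and 387 at d2, 372 and 383 at d4, 514 and 486 at d6, 442 and 425 at d8, 601 and 614 in iPSCs, and 341 and 387 in noOKSM MEFs. The iPSC libraries were the highest in both genotypes, and the WT noOKSM libraries the lowest of all. Against its own d0, WT H3f3b rose in iPSCs by 0.47 ± 0.0822 on the log2 scale and fell by 0.49 in noOKSM (edgeR adjusted p = 1.87e-05 and 0.000384). At d6 the K36M libraries were higher than WT by 0.50 ± 0.0823 (edgeR adjusted p = 1.32e-05), or 0.34 with the exon length trend removed (adjusted p = 0.000206). K36M was also higher at d8, by 0.21 ± 0.0821, and in noOKSM, by 0.29 ± 0.0822 (edgeR adjusted p = 0.0295 and 0.00755). The d8 call was lost whichever of its 4 libraries was left out (adjusted p up to 0.153), and the noOKSM call without WT noOKSM replicate 1 (adjusted p = 0.069) or K36M noOKSM replicate 2 (adjusted p = 0.137).

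Per kilobase of annotated exon, H3f3b stood above H3f3a in every group, and the share of H3f3a changed with stage. In WT, H3f3a made up 8.61 ± 0.145% of the summed CPM per kb of both genes at d0, then 27.3 ± 2.1% (d2), 32.9 ± 0.221% (d4), 34 ± 0.643% (d6), 30.5 ± 0.299% (d8), 8.22 ± 0.595% (iPSCs) and 31.2 ± 1.2% (noOKSM; mean ± SD, n = 2). The K36M shares in the same order were 9 ± 0.263%, 25.8 ± 1.36%, 28.6 ± 0.828%, 23.9 ± 1.38%, 19.1 ± 1.58%, 8.01 ± 0.378% and 21.1 ± 1.74%. From d4 to d8 and in noOKSM, both K36M libraries had a lower share than both WT libraries. These shares were not tested. They and the sums below divide all reads by the annotated exon length, and reads of a shorter introduced sequence would change them. The sum of both genes moved less, from 145 ± 0.318 CPM per kb in WT noOKSM to 222 ± 2.54 in K36M iPSCs. At d8 it was 181 ± 0.627 in WT and 180 ± 1.47 in K36M, where H3f3a was lower and H3f3b higher in K36M.

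**Figure D2:**
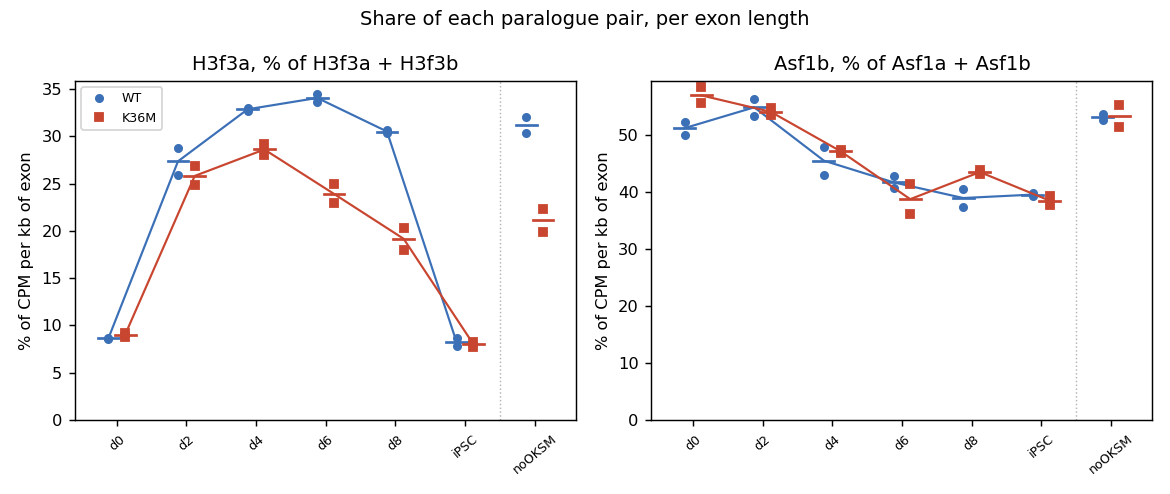
Share of H3f3a in the summed CPM per kb of H3f3a and H3f3b (left) and of Asf1b in that of Asf1a and Asf1b (right), in percent from 0, by stage, with 1 point per library and short bars at the means of 2. The H3f3a share reaches a mean of 34% in WT at d6 and 23.9% in K36M at d6, and lies between 8.01% and 9% at d0 and in iPSCs of both genotypes.

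The copies of H3f3a moved with it. H3f3c (411 bases), H3f3a-ps1 (chrX:99019854-99020263, 410 bases) and H3f3a-ps2 (411 bases) together held 0 to 4 counts in each of the 8 d0 and iPSC libraries, where H3f3a stood at 43.3 to 65.1 CPM. In the 20 libraries of d2 to d8 and noOKSM they held 9 to 33 counts, with H3f3a at 99.7 to 234 CPM. On the CPM scale the copies reached at most 0.201 in the first set and ran from 0.381 to 1.43 in the second. A gene count cannot separate reads of H3f3a from those of an introduced H3f3a sequence, nor AAG at codon 37 from a methionine codon. The part of shared or introduced sequence in the H3f3a levels was not tested.

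**Figure D3:**
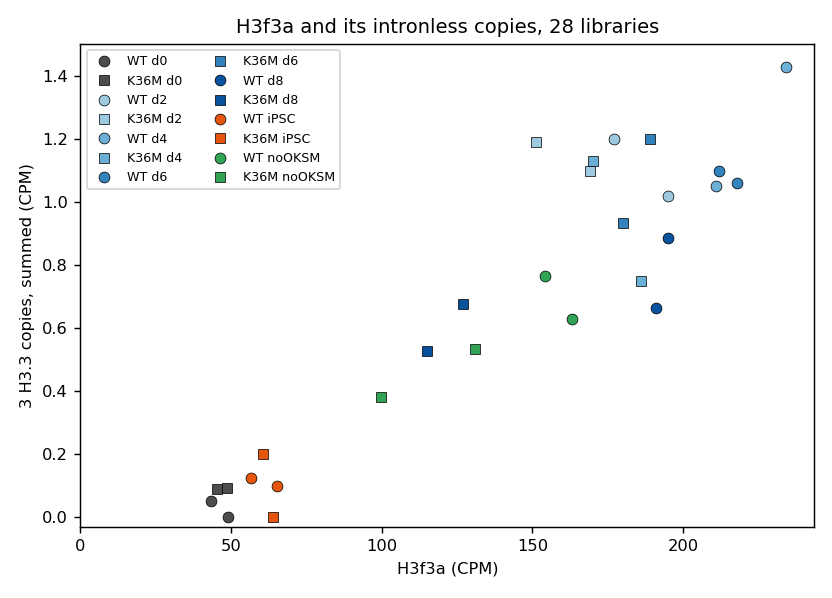
Summed CPM of the 3 copies H3f3c, H3f3a-ps1 and H3f3a-ps2 (y axis) against the CPM of H3f3a (x axis), with 1 point for each of 28 libraries, circles for WT and squares for K36M, coloured by stage. The 8 d0 and iPSC libraries sit at or below 0.201 CPM of copies, and the other 20 sit between 0.381 and 1.43.

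Hira, the gene of the subunit that names the complex, lies on chromosome 16 from 18877130 to 18970402. WT libraries held 57.2 and 61.3 CPM at d0, 122 and 122 at d2, 89.6 and 100 at d4, 87.7 and 81.9 at d6, 104 and 106 at d8, 98.9 and 110 in iPSCs, and 58.3 and 60.8 in noOKSM MEFs. In K36M they held 68.8 and 69.8 CPM at d0, 124 and 119 at d2, 113 and 115 at d4, 80.1 and 79.8 at d6, 90.3 and 91.4 at d8, 118 and 109 in iPSCs, and 54.3 and 46.7 in noOKSM MEFs. Reprogramming and iPSC libraries were all above the d0 and noOKSM libraries. WT Hira rose from d0 to d2 by 1.04 ± 0.0869 on the log2 scale and K36M Hira by 0.81 ± 0.0863 (edgeR adjusted p = 5.01e-10 and 2.24e-08). Between genotypes, Hira was higher in K36M at d4 by 0.27 ± 0.0854 and lower at d8 by -0.21 ± 0.0854 (edgeR adjusted p = 0.0107 and 0.0383). The d8 call was lost with the size factors of DESeq2 (-0.17, adjusted p = 0.0912) and whichever of its 4 libraries was left out, and the d4 call without WT d4 replicate 1 (0.15, adjusted p = 0.271), without K36M d4 replicate 2 (0.26, adjusted p = 0.0618) and with no filter (0.24, adjusted p = 0.109). In noOKSM MEFs Hira was lower in K36M by -0.24 ± 0.0868 (edgeR adjusted p = 0.0375). This call was lost with the exon length trend removed (-0.18, adjusted p = 0.0646) and without WT noOKSM replicate 1 (-0.27), WT noOKSM replicate 2 (-0.21) or K36M noOKSM replicate 2 (-0.13, adjusted p = 0.385).

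Ubn1, which codes for ubinuclein 1, lies on the same chromosome from 5050161 to 5086378. In WT it stayed between 59.5 CPM (a d8 library) and 82.7 CPM (a d4 library). In K36M it stood at 86.8 and 85.2 CPM at d0, 71.5 and 71.5 at d2, 56.2 and 55.4 at d4, 46.7 and 41.6 at d6, 53.2 and 51.1 at d8, 62.8 and 69.1 in iPSCs, and 64.5 and 55.2 in noOKSM MEFs. The K36M d0 libraries were thus the highest and the K36M d6 libraries the lowest of all 28. Against K36M d0 the log2 fold change was -0.62 ± 0.0923 at d4, -0.96 ± 0.0929 at d6 and -0.72 ± 0.0925 at d8 (edgeR adjusted p = 2.52e-06, 2.49e-09 and 2.76e-07). Against WT of the same day the d4 value was -0.46 ± 0.0922 and the d6 value -0.65 ± 0.0929 (edgeR adjusted p = 0.000176 and 1.98e-06). With the exon length trend removed the d6 values were -0.54 against K36M d0 and -0.28 against WT (adjusted p = 4.1e-06 and 0.00559). Over d2 to d8 Ubn1 was lower in K36M by -0.33 ± 0.095 (edgeR adjusted p = 0.00853), and without the d6 libraries this was -0.21 and did not pass (adjusted p = 0.0663).

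Cabin1, the gene of the third subunit, lies on chromosome 10 from 75108855 to 75227102. It held 57.4 to 81.0 CPM in the WT libraries before the iPSC stage and without OKSM, and 102 and 106 CPM in WT iPSCs. The K36M libraries of d0, d2 and d4 held 82.9 to 92.0 CPM, those of d6 52.2 and 41.1, those of d8 67.0 and 67.3, those of iPSCs 102 and 101, and those of noOKSM 75.6 and 53.7. At d4 K36M was higher by 0.38 ± 0.143 and at d6 lower by -0.50 ± 0.145 (edgeR adjusted p = 0.0286 and 0.00392). With the exon length trend removed the d6 value was 0.03 (adjusted p = 0.843). The d6 call was also lost without WT d6 replicate 1 (-0.37, adjusted p = 0.0736) or K36M d6 replicate 2 (-0.34, adjusted p = 0.0778). The d4 call was lost without WT d4 replicate 1 (0.18, adjusted p = 0.395), K36M d4 replicate 1 (0.34, adjusted p = 0.128) or K36M d4 replicate 2 (0.42, adjusted p = 0.0621).

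Asf1a, on chromosome 10 from 53316767 to 53329019, was higher in K36M than in WT cells from d4 to d8. WT libraries held 24.9 and 21.8 CPM at d0, 33.9 and 35.0 at d2, 31.3 and 24.8 at d4, 25.5 and 28.6 at d6, 25.1 and 31.5 at d8, 33.6 and 34.8 in iPSCs, and 19.6 and 21.0 in noOKSM MEFs. The K36M libraries held 23.3 and 22.8 CPM at d0, 38.5 and 38.8 at d2, 43.3 and 43.3 at d4, 51.4 and 61.2 at d6, 39.1 and 41.4 at d8, 39.8 and 38.1 in iPSCs, and 16.9 and 23.4 in noOKSM MEFs. From d2 to iPSCs both K36M libraries were above both WT libraries, and in d0 and noOKSM MEFs the genotypes overlapped. The K36M to WT log2 fold change was 0.63 ± 0.134 at d4, 1.06 ± 0.134 at d6 and 0.50 ± 0.133 at d8 (edgeR adjusted p = 0.000347, 3.11e-07 and 0.00239). The d6 value was 0.75 with the exon length trend removed (adjusted p = 2.33e-05), and the d8 value 0.35 without WT d8 replicate 1 (adjusted p = 0.0649).

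Asf1b, the form of dividing cells, lies on chromosome 8 from 86479406 to 86494096 and peaked at d2 in both genotypes. WT libraries held 26.7 and 25.7 CPM at d0, 46.9 and 42.8 at d2, 25.4 and 24.4 at d4, 20.4 and 21.0 at d6, 18.3 and 20.1 at d8, 23.8 and 24.1 in iPSCs, and 24.4 and 25.0 in noOKSM MEFs. In K36M the values were 34.9 and 30.6 CPM at d0, 49.6 and 47.6 at d2, 41.9 and 40.9 at d4, 38.7 and 37.1 at d6, 31.7 and 34.5 at d8, 27.6 and 24.6 in iPSCs, and 22.2 and 26.6 in noOKSM MEFs. At d6 and d8 the WT libraries were below those of d0, by -0.45 ± 0.099 on the log2 scale at d8 (edgeR adjusted p = 0.00043), while the K36M value at d8 against its own d0 was 0.02 ± 0.0965 (edgeR adjusted p = 0.882). Between genotypes Asf1b was higher in K36M by 0.73 ± 0.0969 at d4, 0.88 ± 0.0983 at d6 and 0.78 ± 0.0978 at d8 (edgeR adjusted p = 9.83e-07, 4.92e-08 and 3.44e-07). The d6 value was 0.59 with the exon length trend removed (adjusted p = 6.05e-06). Asf1b made up 51.2 ± 1.67% of the summed CPM per kb of both ASF1 genes in WT at d0 and 39.5 ± 0.324% in WT iPSCs, and 56.9 ± 1.98% and 38.4 ± 1.21% in K36M.

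Daxx lies on chromosome 17 from 34046359 to 34052534. In the fit of all 14 groups, only Daxx of the 9 passed the test between genotypes on each of d2, d4, d6 and d8. In each day's own 4 libraries Asf1a and Asf1b also passed on all these days. Their d2 values there were 0.19 and 0.14 (edgeR adjusted p = 0.00899 and 0.0372). WT libraries held 36 and 34.4 CPM at d0, 37.6 and 36.3 at d2, 37.4 and 32.5 at d4, 35.1 and 32.8 at d6, 40.4 and 37.5 at d8, and 34.8 and 32.4 in noOKSM MEFs, then 60.2 and 58.2 in iPSCs. The K36M libraries held 34.9 and 34.1 CPM at d0, 48.9 and 46.6 at d2, 69.0 and 70.0 at d4, 79.3 and 58.4 at d6, 56.2 and 59.1 at d8, 63.8 and 63.3 in iPSCs, and 37.2 and 38.4 in noOKSM MEFs. In WT only the iPSC libraries stood above 40.4 CPM, whereas in K36M every library of d2 to d8 did. Against its own d0, WT Daxx had log2 fold changes between -0.05 ± 0.109 and 0.15 ± 0.107 over d2 to d8, none of which passed (edgeR adjusted p = 0.241 to 0.952), and of 0.75 ± 0.107 in iPSCs (edgeR adjusted p = 1.15e-06). With upper quartile scaling the WT d8 value was 0.27 and passed (adjusted p = 0.0424). K36M Daxx had risen over its own d0 by 0.47 ± 0.107 at d2 and by 1.01 ± 0.107 at d4 (edgeR adjusted p = 0.000598 and 1.49e-08). Between genotypes Daxx was higher in K36M by 0.37 ± 0.106 (d2), 0.99 ± 0.106 (d4), 1.02 ± 0.107 (d6) and 0.57 ± 0.105 (d8; edgeR adjusted p = 0.0149, 4.14e-08, 1.61e-08 and 6.98e-05). The d2 call was lost without WT d2 replicate 1, WT d2 replicate 2 or K36M d2 replicate 1 (adjusted p = 0.0629, 0.115 and 0.12).

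Atrx, on the X chromosome from 102992954 to 103124736, has the longest transcript of the 9 and the largest standard errors. WT libraries held 160 and 227 CPM at d0, 341 and 342 at d2, 417 and 580 at d4, 573 and 625 at d6, 511 and 629 at d8, 383 and 425 in iPSCs, and 246 and 238 in noOKSM MEFs. The K36M libraries held 254 and 241 CPM at d0, 415 and 452 at d2, 769 and 821 at d4, 222 and 594 at d6, 690 and 755 at d8, 461 and 526 in iPSCs, and 199 and 178 in noOKSM MEFs. Atrx rose in both genotypes, with a log2 fold change against d0 of 1.36 ± 0.278 in WT and 1.68 ± 0.279 in K36M at d4 (edgeR adjusted p = 0.000299 and 2.41e-05). At d6 K36M replicate 1 was below all WT libraries of d2 to d8, and the K36M to WT value of -0.55 ± 0.272 did not pass (edgeR adjusted p = 0.0768). Without K36M d6 replicate 2 this value was -1.43 (adjusted p = 3.07e-06), and with the replicate number as a block it was -0.60 (adjusted p = 0.0287). At d4 K36M was higher by 0.67 ± 0.272 (edgeR adjusted p = 0.0447), which did not pass without WT d4 replicate 1 (0.41), K36M d4 replicate 1 (0.72) or K36M d4 replicate 2 (0.62). With no filter, Atrx also passed between genotypes at d0 (0.37), d2 (0.35), d6 (-0.60), d8 (0.31) and noOKSM (-0.38; adjusted p = 5.47e-08 to 0.0102). In the stage's own 4 libraries it passed at d2 (0.37), d8 (0.31), iPSCs (0.30) and noOKSM (-0.35; adjusted p = 6.92e-09 to 0.0214). Over d2 to d8 the K36M to WT value was 0.19 ± 0.192 (edgeR adjusted p = 0.405). It was 0.36 without K36M d6 replicate 1, 0.45 without the d6 libraries and 0.53 with the exon length trend removed, and each of these passed (adjusted p = 0.00655, 0.00264 and 0.00131).

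**Figure D4:**
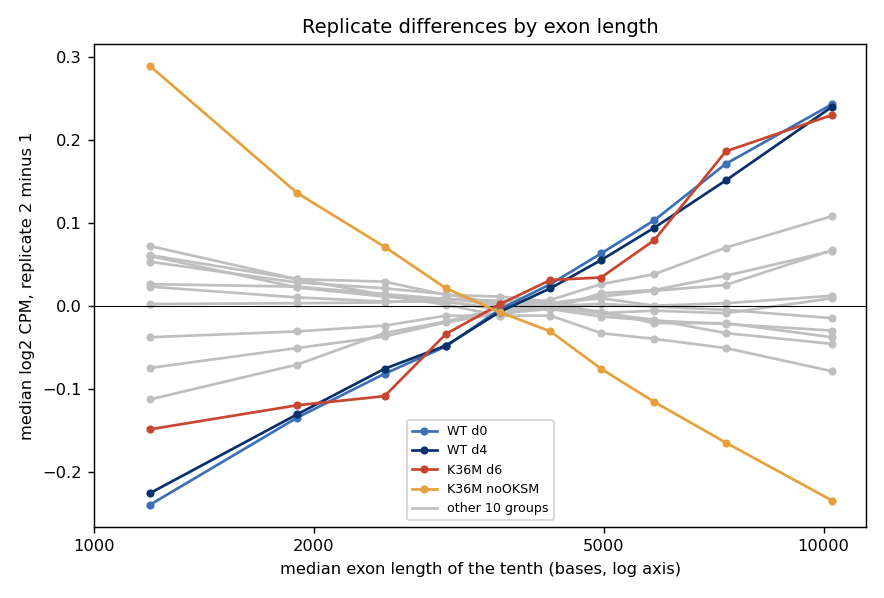
Median log2 ratio of replicate 2 to replicate 1 (y axis) in deciles of genes by exon length (x axis, log scale, in bases), 1 line per group. The line of WT d0 runs from -0.24 to 0.24 and that of K36M noOKSM from 0.29 to -0.24, and Atrx, at 15190 bases, lies in the longest decile, which starts at 8434 bases.

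Levels can be compared between genes per kilobase of annotated exon, with the limit given above for introduced sequence. At WT d0 H3f3b stood at 140 ± 9.93 CPM per kb, and the other 8 genes between 8.34 ± 1.52 (Cabin1) and 13.2 ± 1.18 (H3f3a). In K36M at d4, H3f3b stood at 127 ± 2.57 CPM per kb, Atrx at 52.3 ± 2.42, H3f3a at 50.8 ± 3.09 and Daxx at 22.7 ± 0.229, with Ubn1 lowest at 8.64 ± 0.0902. Over the 14 groups the highest mean was 4.83 times the lowest for H3f3a and 4.23 times for Atrx, the widest ranges, and 1.95 times for Ubn1, the narrowest. When the 14 group means of a gene were put in order, the libraries of neighbouring groups overlapped in 6 (Hira and Asf1b) to 9 (Daxx) of 13 neighbour pairs.

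With all libraries, the number of the 9 genes called between genotypes was lowest in iPSCs and highest from d4 to d8. The share called over all genes was also lowest in iPSCs and highest from d4 to d8. At d0, 2 of the 9 genes were higher in K36M (Ubn1 and Asf1b) and 0 lower, where 15.9% of all 16932 tested genes differed, 7.6% higher and 8.31% lower. The d0 values were 0.27 ± 0.0917 for Ubn1 and 0.32 ± 0.098 for Asf1b (edgeR adjusted p = 0.0438 and 0.0268). Neither passed with no filter (adjusted p = 0.0996 and 0.0697), in the 4 libraries of d0 alone (0.0507 and 0.0564), or without WT d0 replicate 1 (0.348 and 0.105) or K36M d0 replicate 1 (0.209 and 0.31). Ubn1 was also lost with upper quartile scaling (adjusted p = 0.0544) and without K36M d0 replicate 2 (adjusted p = 0.135), Asf1b without WT d0 replicate 2 (adjusted p = 0.112), and with the exon length trend removed Ubn1 was 0.17 (adjusted p = 0.189). At d2, 1 was higher (Daxx), against 20.1% of all genes, 9.74% higher and 10.4% lower. At d4, 6 were higher and 2 lower, against 52.9% of all genes, 27.1% higher and 25.8% lower. At d6, 4 were higher and 2 lower, against 70.9%, 37.3% higher and 33.7% lower. At d8, 4 were higher and 3 lower, against 60.6%, 31.6% higher and 29% lower, and leaving out 1 library there left 3 or 4 calls. In iPSCs none of the 9 passed edgeR, 0 had an unadjusted p below 0.05 and DESeq2 called 0, against 1.25% of all genes, 0.756% higher and 0.49% lower. In noOKSM MEFs 1 was higher and 2 were lower, against 35% of all genes, 18.2% higher and 16.7% lower. Over d2 to d8, 3 were higher (Asf1a, Asf1b and Daxx) and 2 lower (H3f3a and Ubn1), against 58.5% of 15954 genes, 30.2% higher and 28.2% lower. With all libraries the share called among the 9 was above that of all genes at d0, d4 and d8 and below it in the other comparisons of the genotypes. This order turned when WT replicate 1 of the stage was left out at d0, d4 and d8. At d0 it also turned without K36M d0 replicate 1, and in the 4 libraries of d0 alone 0 of the 9 were called. At d2 the order turned in the 4 libraries of d2 alone, where 6 were called against 6818 of 13901 genes. The same held in the 4 iPSC libraries alone, with 1 of 9 called against 1397 of 14642 genes. Leaving out 1 library could also raise the number called among the 9 over d2 to d8 and in noOKSM.

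**Figure D5:**
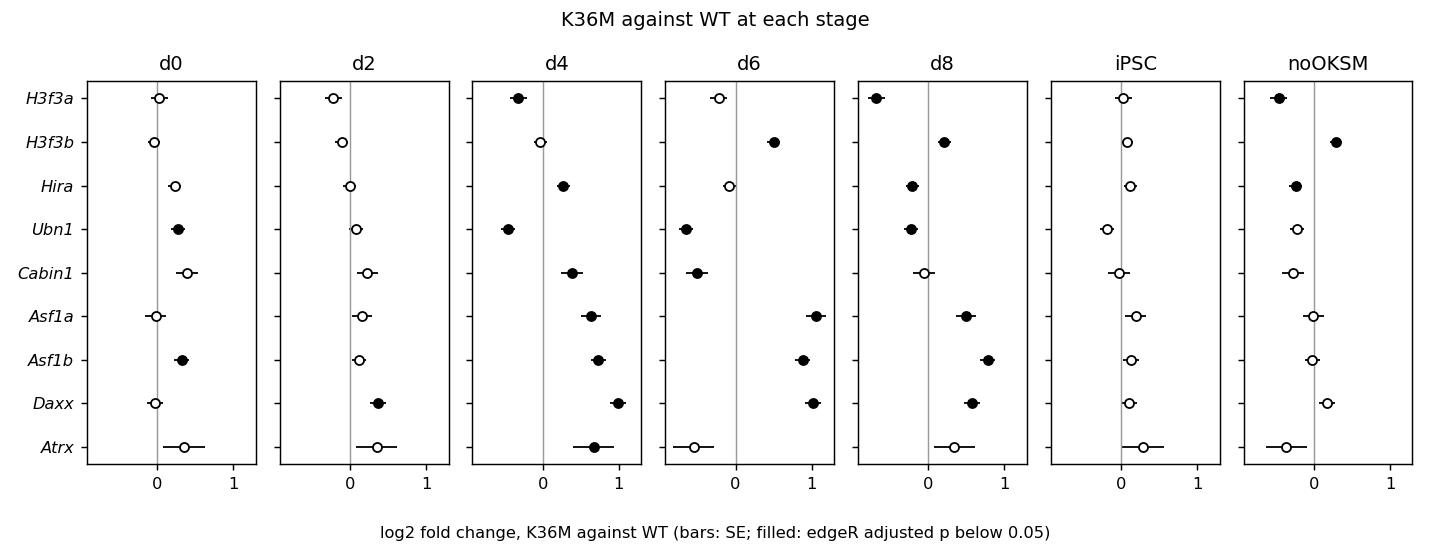
Log2 fold change of K36M against WT (x axis) for the 9 genes (rows) at each of 7 stages (panels), with bars of 1 SE, filled where the edgeR adjusted p is below 0.05. Filled points stand for 8 genes at d4, 6 at d6, 7 at d8 and none in iPSCs.

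The course against d0 can be counted in the same way, although the comparisons of a genotype share its d0 libraries. In WT at d2, 5 of the 9 genes were higher and none lower, against 57.8% of all genes that differed from d0, 27.1% higher and 30.7% lower. WT at d4 had 3 higher, against 57.4%, 28.3% higher and 29.1% lower. WT at d6 had 3 higher and 2 lower, against 59%, 29.1% higher and 29.9% lower, and WT at d8 had 3 and 2, against 64%, 32.7% higher and 31.4% lower. In WT iPSCs 7 were higher, against 77.5%, 40.1% higher and 37.4% lower. WT noOKSM MEFs had 1 higher (H3f3a) and 1 lower (H3f3b), against 8.2%, 4.15% higher and 4.06% lower.

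In K36M at d2, 6 of the 9 were higher and 1 lower, against 61.1% of all genes that differed from K36M d0, 30% higher and 31.2% lower. K36M at d4 had 6 higher and 1 lower, against 68.9%, 36.1% higher and 32.8% lower. K36M at d6 had 7 higher and 2 lower, against 77.9%, 41.9% higher and 36% lower, and K36M at d8 had 5 and 2, against 73.5%, 39.5% higher and 34% lower. K36M iPSCs had 6 higher and 2 lower, against 75.5%, 39.4% higher and 36.1% lower. K36M noOKSM MEFs had 1 higher (H3f3a) and 4 lower (Hira, Ubn1, Cabin1 and Asf1b), against 34.5%, 18.8% higher and 15.6% lower. Ubn1 was the gene that was lower in every one of these K36M comparisons, although with upper quartile scaling it did not pass at d2 (-0.14, adjusted p = 0.197) or in iPSCs (-0.18, adjusted p = 0.0819). The d2 call was also lost with no filter (adjusted p = 0.0701) and without K36M d0 replicate 1, K36M d2 replicate 1 or K36M d2 replicate 2. In WT, Ubn1 was lower than at d0 at d8, by -0.22 ± 0.0917 (edgeR adjusted p = 0.0444). That value was -0.09 with upper quartile scaling (adjusted p = 0.424), and the call was also lost with no filter (-0.19, adjusted p = 0.214) and without WT d0 replicate 2 (-0.15), WT d8 replicate 1 (-0.18) or WT d8 replicate 2 (-0.25). With the exon length trend removed, 6 of the K36M calls against d0 did not pass: Ubn1 at d2 (-0.19, adjusted p = 0.0502), Asf1b at d4 (0.18) and d6 (-0.17), H3f3b at d6 (0.10), and Cabin1 at d8 (-0.26) and in noOKSM (-0.23, adjusted p = 0.166). Under the same setting H3f3b at d4 (-0.21) and in noOKSM (-0.26), Cabin1 in iPSCs (0.40) and Asf1a in noOKSM (-0.38) passed, as did H3f3b in WT at d8 (-0.23).

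Whether the genotype difference itself changed was tested against that at d0. Tested jointly over d2, d4, d6, d8 and iPSCs, the difference changed for 8 of the 9 genes, against 75.8% of all genes. Daxx had the smallest edgeR adjusted p (2.66e-06), and Atrx was the gene that did not pass (edgeR adjusted p = 0.106). Between noOKSM and d0 MEFs the difference changed for 5, with 1 higher and 4 lower, against 25.1% of all genes, 12.8% higher and 12.2% lower. The change in the log2 fold change was -0.46 ± 0.123 for Hira, -0.50 ± 0.13 for Ubn1, -0.65 ± 0.203 for Cabin1, -0.49 ± 0.161 for H3f3a and 0.33 ± 0.116 for H3f3b (edgeR adjusted p = 0.00844, 0.00751, 0.0216, 0.0294 and 0.0392). The median of this change was 0.44 in the decile of genes with the shortest exons and -0.47 in the decile with the longest. With the exon length trend removed, Ubn1 (-0.28, adjusted p = 0.0899), Cabin1 (-0.36, adjusted p = 0.163) and H3f3b (0.22, adjusted p = 0.128) did not pass, while Asf1b did, with -0.54 (adjusted p = 0.00468) in place of -0.34. Atrx changed by -0.72 ± 0.387 (edgeR adjusted p = 0.19) and passed with no filter (-0.75, adjusted p = 1.14e-05).

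Other genes of the same pathways give the setting of these values over d2 to d8, where the median K36M to WT log2 fold change of all genes was 0.02 and 58.5% of all genes differed, 30.2% higher and 28.2% lower. Of the 5 genes of the HIRA complex and its partners (Hira, Ubn1, Ubn2, Cabin1 and Asf1a), 1 was higher and 1 lower in K36M, with a median of -0.02. Of the 5 genes around DAXX and the PML bodies (Daxx, Atrx, Pml, Sp100 and Dek), 2 were higher, with a median of 0.19, and the second after Daxx was Dek, a chromatin protein known as an H3.3 chaperone, with 0.51 ± 0.102 (edgeR adjusted p = 0.000653). The replication-coupled group, which places H3 behind the fork and includes Asf1b, had 7 of 9 genes higher and none lower, with a median of 0.70. Nasp, a chaperone of the soluble H3-H4 reserve, was higher by 1.29 ± 0.202, Chaf1b, a subunit of CAF-1, by 0.89 ± 0.191, and Tonsl, which binds new histones at forks, by 0.89 ± 0.152 (edgeR adjusted p = 8.54e-05, 0.0011 and 0.000175). Among 6 genes for ASF1 kinases and for import and acetylation of H3-H4, 4 were higher and 1 lower, with a median of 0.26. Hat1, which acetylates new H4, was higher by 1.31 ± 0.21, and Rbbp7, its partner, by 0.53 ± 0.084 (edgeR adjusted p = 0.000104 for both). Ipo4, an importin for H3-H4, was lower by -0.36 ± 0.125 (edgeR adjusted p = 0.0236). Of 12 other histone chaperones and remodelers 6 were higher and 1 lower, with a median of 0.18, led by Hjurp, the chaperone of the centromeric H3 (0.87 ± 0.0782, edgeR adjusted p = 8e-07). Set and Anp32e followed with 0.48 ± 0.118 and 0.29 ± 0.0913 (edgeR adjusted p = 0.00267 and 0.0121). Outside these days, Hjurp was also higher in K36M at d0 (group means of 227 CPM against 118 in WT) and in noOKSM (179 against 119). Of 7 other histone variant genes 4 were higher and none lower, close to the 58.5% called among all genes, with a median of 0.44, among them H2afx, Cenpa and H2afv with 0.93 ± 0.176, 0.88 ± 0.159 and 0.69 ± 0.257 (edgeR adjusted p = 0.000417, 0.00029 and 0.0317). These values pool the days, and some days went the other way. Group means in K36M against WT were 239 against 212 CPM for Ipo4 at d2 and 738 against 755 for Set at d8. At d2 they were 46.8 against 51.1 CPM for Chaf1b and 10.7 against 13.3 for H2afv.

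Cell division genes moved with several of these groups. All 10 listed were higher in K36M over d2 to d8, where 30.2% of all genes were, with a median of 0.87. Bub1, a spindle checkpoint kinase, was higher by 1.18 ± 0.202, Ccnb1, mitotic cyclin B1, by 1.07 ± 0.151, and Plk1, a mitotic kinase, by 0.98 ± 0.147 (edgeR adjusted p = 0.000182, 3.48e-05 and 6.24e-05). Across the 14 group means, the mean log2 level of these 10 genes correlated with that of Daxx with r = 0.89, Asf1a 0.88, H3f3b 0.76, Hira 0.71, Atrx 0.54, Asf1b 0.5, Cabin1 0.35, H3f3a -0.08 and Ubn1 -0.38. These r values describe 14 means that share stages and libraries. Markers of cell type moved as well. Over d2 to d8 the summed CPM of 5 fibroblast markers ran from 1380 to 2430 in WT and from 76.2 to 1290 in K36M, that of 5 pluripotency markers from 0.286 to 157 and from 1.79 to 912, and that of 5 keratinocyte markers from 0.386 to 7.72 and from 2.77 to 45.4. In K36M most of the keratinocyte sum was Krt5 and Krt14, with group means up to 14.8 and 23.4 CPM (d6). Krt15 and Dsg3 reached at most 1.4 and 1.99 CPM over d2 to d8. Trp63 went the other way, with 21 counts in WT d4 and 18 in WT d6 against 0 and 3 in K36M. The 5 endothelial markers summed to 79.8 to 132 CPM in WT and 44.8 to 105 in K36M. Most of this was Tek, an angiopoietin receptor, with group means of 75.9 to 128 CPM in WT and 45.8 to 99.7 in K36M against 0.75 and 0.475 at d0. Pecam1 reached 18.5 CPM in K36M d8 and 92.6 in WT iPSCs, Cdh5 at most 0.626 CPM over d2 to d8, and Emcn was at 0 counts in WT d4, d6 and d8 and K36M d6 and d8. The 5 macrophage markers summed to 6.1 to 12.7 CPM in WT and 2.71 to 18.7 in K36M. Most of this was Cd68, a lysosomal protein, with group means up to 12 CPM in WT (d4) and 12.1 in K36M (d8), and Csf1r reached 4.6 CPM in K36M d8. The other 3 were at or below 0.277 CPM, with Ptprc at 0 counts in WT d6 and Tyrobp in K36M d2 and d8. The part of cell division and of cell type in the differences of the 9 genes was not tested.

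Among the 9 genes, the levels of Asf1a and Daxx were the most alike over the 14 group means (r = 0.86), followed by Hira and Atrx (0.75). H3f3a and H3f3b had r = -0.49, and Ubn1 had r = -0.61 with Daxx and -0.60 with Asf1a. Among 10143 genes with a mean of at least 5 CPM, the nearest to H3f3a was Ociad2 (r = 0.867), a lower likeness than the nearest gene had for any other of the 9. Tprkb (0.864) and Rgs20 (0.861) came next. Nearest to H3f3b were Rfc4, a clamp loader subunit (0.948), Rnaseh2b (0.935) and Ccdc101 (0.932). Hira was most like Pnn (0.98), Pdcd11 (0.975) and Ikbkap (0.974), Ubn1 like Prdm11 (0.917), Zcchc14 (0.911) and Epc2 (0.9), and Cabin1 like Iars (0.946), Prrc2a (0.944) and Phf12 (0.931). For Asf1a the nearest were Sf3a3, a splicing factor (0.978), Stoml2 (0.977) and Pes1 (0.966), and for Asf1b Elavl1, an RNA-binding protein (0.934), Sf3b4 (0.931) and Ppp2r5d (0.918). Daxx was most like Gna15 (0.964), Cog7 (0.961) and Smu1 (0.96), and Atrx like N4bp2 (0.957), Dennd1b (0.953) and Cdc42bpg (0.952). These likenesses describe 14 group means.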

How the data were processed

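The deposited table holds raw counts of reads for each gene, as whole numbers with unequal library totals. The submitters' processing notes name mm9, STAR 2.5.0, HTSeq 0.11.2 and edgeR. The annotation, strand setting and read length are not given in the sources consulted, and overlapping or antisense genes are uncertain for that reason. Columns were matched to samples by name (0 unused). Those of iPSC and noOKSM name no stage and were matched by library number, genotype and replicate. GENCODE vM1 (mm9) held 37205 of the 37620 gene IDs and gave coordinates, exon lengths and sequences.

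The tests used edgeR 4.0.16 in R 4.3.3: TMM scaling, a filter by filterByExpr (at least 10 counts, total at least 15), then a robust quasi-likelihood fit of all 14 groups (16932 genes, 14 residual degrees of freedom). The K36M difference over d2 to d8 came from a second fit of 16 libraries with day as a covariate (15954 genes, 11 degrees of freedom). P-values were two-sided, adjusted by Benjamini-Hochberg over all genes, and called below 0.05. Only the second fit was tested on simulated data, with 1 spread for all genes, no differences between days and no trend with exon length. The fit of all 14 groups was not tested in this way. CPM are counts over the TMM-scaled library size on the usual scale, and CPM per kb divides them by union exon length. Alternatives were upper quartile and DESeq2 size factors, DESeq2 1.42.0, no filter, a replicate block, the stage's own 4 libraries and leaving out each library. Removing each library's trend with exon length and crossing the block were added after seeing the data.

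All 9 genes are named with values. Other pathway genes are up to 3 per list, those that passed over d2 to d8 with the largest change, and like genes are the 3 with the highest r of log2(CPM + 1). Members and lists were chosen with earlier results of these data known.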

Additional observations from a re-analysis of the deposited data

Results flagged for a closer look

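The genotype difference of 8 genes changed between d0 and the later stages in the joint edgeR test over d2, d4, d6, d8 and iPSCs. The adjusted p was 2.66e-06 for Daxx, 1.45e-05 for Ubn1, 2.34e-05 for Asf1b, 0.000313 for Asf1a, 0.000689 for H3f3b, 0.00331 for Cabin1, 0.00359 for H3f3a and 0.00727 for Hira. Of all genes 75.8% changed in this test. Leaving out any 1 of the 24 libraries left 8 or 9 of the 9 genes called.

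The genotype difference in noOKSM MEFs departed from that in d0 MEFs for 5 genes, with an edgeR adjusted p of 0.00751 for Ubn1, 0.00844 for Hira, 0.0216 for Cabin1, 0.0294 for H3f3a and 0.0392 for H3f3b. Both are MEFs of the same 2 genotypes, and H3f3a stood at 43.3 to 49.1 CPM in the d0 libraries and at 99.7 to 163 CPM in the noOKSM libraries. Leaving out 1 of the 8 libraries left 1 to 4 of these genes called, and the 1 was H3f3a, without K36M noOKSM replicate 2.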

How the results depend on the processing

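Of 107 differences called for single genes, 105 kept direction and call with DESeq2's size factors, 93 with upper quartile scaling, 94 with no filter, 105 in DESeq2, 106 with a replicate block and 95 with the exon length trend removed. In the stage's own 4 libraries 22 of 27 were kept and 5 lost. Of differences not called, 8 of 36 became called in the stage's own 4 libraries, and of 82, 11 did with no filter, 8 with the length trend removed, 6 with upper quartile scaling, 3 in DESeq2, 1 with a replicate block and 0 with DESeq2's size factors. Leaving out 1 library kept 417 of 508 calls, lost 90 and turned 1, and added 11 of 392. The turned values were Cabin1 in K36M against WT at d6 (0.03) and Asf1b in K36M d6 against K36M d0 (-0.17) with the length trend removed, and Atrx in K36M d6 against K36M d0 (-0.16) without K36M d6 replicate 2, within a range from -0.16 to 1.26 over its left-out libraries.

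The number of the 9 genes called between genotypes at d0 (2) was 1 with upper quartile scaling, 0 in its own 4 libraries and 1 with the length trend removed. At d2 (1) it was 2 with no filter and 6 in its own 4 libraries, and in iPSCs (0) it was 1 in its own 4 libraries, which was Atrx (0.30, adjusted p = 0.00334). WT d6 against WT d0 (5) had 3 with upper quartile scaling, and the change between noOKSM and d0 (5) had 3 with the length trend removed. With 1 library left out the counts ran from 0 to 2 at d0, 0 to 1 at d2, 4 to 8 at d4, 3 to 4 at d8, 1 to 4 in noOKSM, 3 to 5 for K36M noOKSM against K36M d0 and 2 to 4 for the change between noOKSM and d0. The causes were not tested.

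Upper quartile scaling moved the median of all genes by up to 0.24 (from 0.16 to 0.40, K36M d6 against K36M d0). The share of higher calls over all genes went from 48.5% to 58.9% at d2, from 52.1% to 62.8% in noOKSM and from 51.2% to 61.9% for the change between noOKSM and d0. Over all genes, calls in iPSCs were 211, and 447 with no filter, 319 in DESeq2 and 1397 in its own 4 libraries, where 47.2% were higher (60.7% in the full fit). At d2, calls were 3405, and 6818 in its own 4 libraries. At d6, they were 12013, and 7731 there.

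Replicate numbers are shared between genotypes. The deviations of same-numbered libraries correlated with r from -0.32 at d0 to 0.51 in noOKSM, so the number does not pair libraries in the same way at all stages. With r also positive at d6 (0.29) and in iPSCs (0.25), a pairing within these stages and noOKSM was not tested. The replicate block left 1 call lost (Asf1b in K36M d6 against K36M d0, 0.21, adjusted p = 0.0515) and added 1 (Atrx at d6, -0.60). Crossing it at d0 and d4, where r was negative, changed none of 10 calls. Low counts limited the copies of H3f3a and several of the cell type markers, where 0 counts allow up to 3.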
